A study of Mus musculus with 19 samples.

Results

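Cells detect misplaced nucleic acid with a small set of cytosolic proteins, and 10 genes that encode these sensors and their nearest partners were followed in hepatocytes of young and old mice. The genes were taken by symbol from the deposited table, which holds 24537 genes: Ddx58, Ifih1, Dhx58, Mavs, Zbp1, Trex1, Adar and Samhd1, with STING as Tmem173 and cGAS as Mb21d1. Each symbol had 1 row. The libraries were poly(A) RNA of hepatocytes isolated by perfusing the liver of wild-type (WT) male C57BL/6J mice, with 1 library per mouse. There were 10 young mice, labelled 5mo, and 9 old mice, labelled 24mo, and no mouse carried an engineered allele or was given an agent according to the labels. Young and old mice were killed on each of 2 cull days, 23 days apart, with 5 young and 5 old mice on the first day and 5 young and 4 old on the second. Mice are named by the library number in their label.

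As background, the RIG-I-like receptors (RIG-I, MDA5 and LGP2, from Ddx58, Ifih1 and Dhx58) bind double-stranded or uncapped RNA in the cytosol, and RIG-I and MDA5 then engage the mitochondrial adaptor MAVS. The enzyme cGAS binds cytosolic DNA and makes a cyclic dinucleotide that activates STING on the endoplasmic reticulum. Both routes lead through the kinase TBK1 and the factor IRF3 to type I interferon, and many of the sensor genes are themselves interferon-induced. TREX1, ADAR and SAMHD1 limit the supply of ligand, and loss of any of them causes an interferon-driven disease in people.

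Hepatocyte markers were abundant in all libraries, with summed levels of 10 hepatocyte genes (2 higher and 4 lower in old mice) of 103980 to 162348 CPM (counts divided by the total of each library) in young and 123706 to 206713 CPM in old libraries. Total counts over genes were 17381439 to 20287628 per library. Old mouse 1187 stood apart on the first principal component of all tested genes, scoring 92.92 against 31.78 in the next library. Young mice 1184, 1186 and 1188 stood apart on the second, at -52.24 to -40.89 against at least -12.09 elsewhere. Markers of other liver cells were higher in old libraries: 16 of 16 macrophage, 8 of 12 endothelial and 12 of 12 stellate genes passed the test described next, and the summed macrophage level was 109 to 534 CPM in young libraries and 75.7 to 867 CPM in old libraries other than 1187, which had 3704 CPM. Without mouse 1187 the counts were 4 of 16 macrophage, 7 of 12 endothelial and 10 of 12 stellate genes. None of the 16 macrophage genes was at 0 in any library. The macrophage genes Adgre1 and Clec4f averaged 9.62 ± 5.07 and 36.1 ± 19.6 CPM at 5 months (SD, n = 10), against 30.4 ± 39.7 and 97.6 ± 130 CPM at 24 months (SD, n = 9), and without mouse 1187 neither passed (edgeR adjusted p = 0.128 and 0.22). Endothelial Pecam1 and Cdh5 rose by log2 fold changes of 0.85 and 0.96, and stellate Lrat and Des by 1.52 and 1.45. Without mouse 1187, Cdh5 had 0.61 and did not pass (edgeR adjusted p = 0.0591). The first listed markers of T cells (Cd3e, Cd3d), neutrophils (S100a8, S100a9), dendritic cells (Flt3, Xcr1) and bile duct cells (Krt7, Krt19) were too low to be tested, each averaging under 1 CPM at both ages. Among the genes of such lists that could be tested, 2 of 2 for B cells, 1 of 1 for neutrophils (Csf3r, 2.10 as log2 fold change), 2 of 3 for dendritic cells (Clec9a, 1.08, and Bst2, 0.48), 0 of 1 for T and NK cells and 0 of 2 for bile duct cells were higher in old mice. Bst2 averaged 105 CPM in young and 145 CPM in old mice, far above the other genes of its list. Its rise is therefore not read as one of dendritic cells. Csf3r did not pass without mouse 1187 (1.29, edgeR adjusted p = 0.0505). In bulk RNA, fewer cells of a type and less RNA per cell cannot be told apart.

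Age was compared in old against young mice with edgeR's quasi-likelihood test, with cull day as a covariate and p-values adjusted over all 12269 genes tested. Library totals behind CPM were scaled by the trimmed mean of M-values (TMM). Of the 10 genes, 9 passed the filter on low counts and 1, Mb21d1, did not. Zbp1, Tmem173, Samhd1, Dhx58, Ddx58 and Adar rose with age, Mavs fell, and Ifih1 and Trex1 did not pass an adjusted p of 0.05. Over all genes, 30.9% passed, 16.3% higher and 14.5% lower in old mice. The median log2 fold change was 0.38 over the 9 tested sensor genes and -0.003 over all tested genes. Without old mouse 1187 the same 7 calls were made, where 12.4% of all genes were higher and 12.1% lower. Without young mice 1184, 1186 and 1188 the calls were 5 higher and 1 lower, Samhd1 no longer passing at a log2 fold change of 0.69 (edgeR adjusted p = 0.0940), against 14.6% and 12.5% of all genes. Without all 4 mice the 7 calls were again made, against 15.7% and 12.6%. On the first cull day alone, or with macrophage or other-cell markers as a covariate, 0 of the 9 genes passed in edgeR, with 3, 2 and 1 at an unadjusted p under 0.05.

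**Figure D1:**
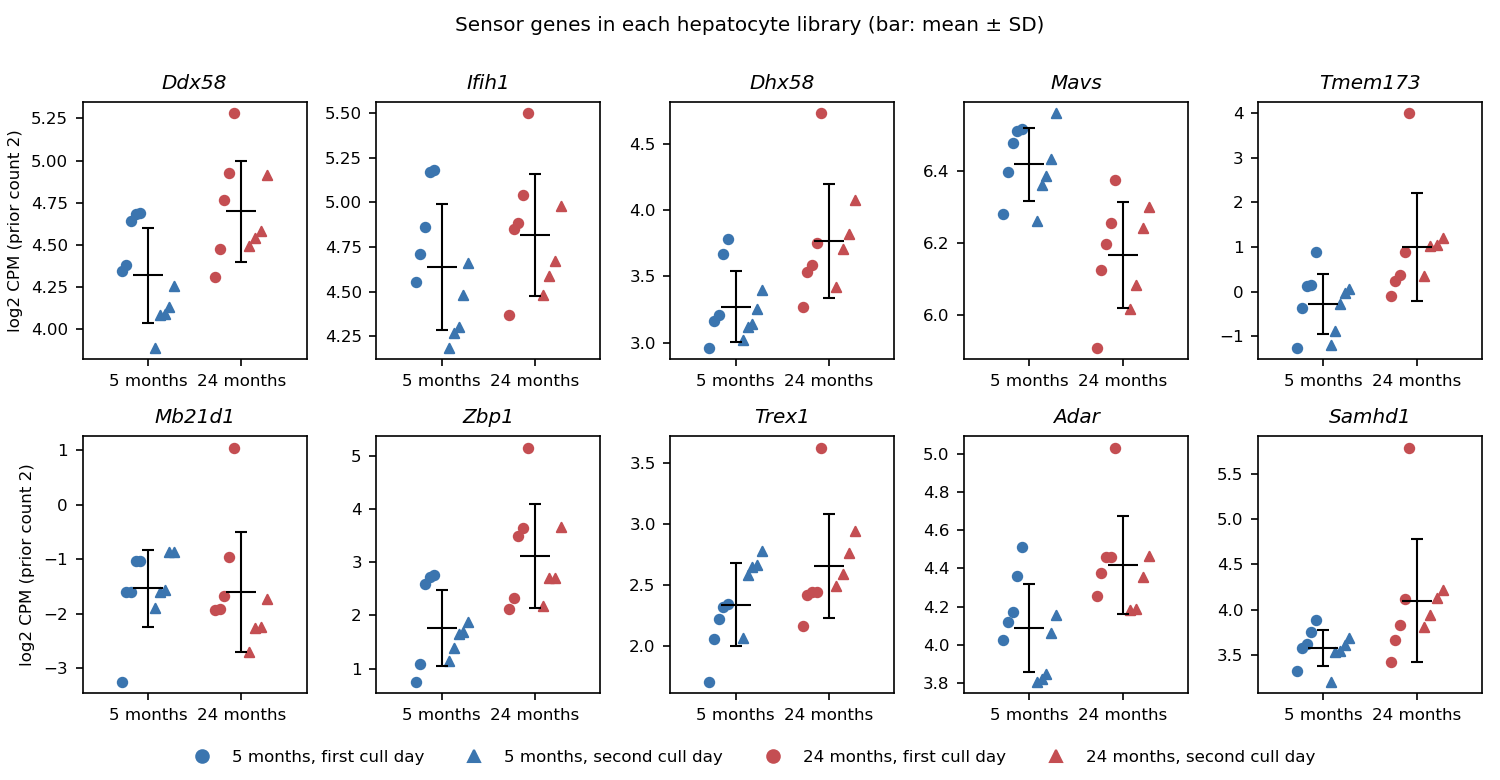
Log2 CPM (vertical axis, computed with a prior count of 2) of each sensor gene in each library, by age (horizontal axis), with circles for the first and triangles for the second cull day, and bars for mean ± SD of each age (n = 10 young, n = 9 old). Old mouse 1187 is the highest old point in every panel except that of Mavs, where it is the lowest.

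Levels between genes were compared per length, as CPM per kilobase (kb) of the counted transcript. Mavs was the most abundant in young mice, with a median of 27.6 CPM per kb. Trex1 (4.62), Ifih1 (4.42), Ddx58 (3.99), Dhx58 (3.76), Samhd1 (2.99) and Adar (2.87) formed a middle group whose ranges overlapped from one gene to the next. Zbp1 had a young median of 1.56 CPM per kb, and its range still overlapped that of Adar. Tmem173 (0.349) lay below Zbp1 and Mb21d1 (0.0555) below Tmem173 without overlap in young mice. Mavs, the adaptor of the RNA route, was above STING, that of the DNA route, in every library. In old mice the medians were 23.7 CPM per kb for Mavs, 5.41 for Dhx58, 5.23 for Ifih1, 5.15 for Trex1, 4.85 for Ddx58, 3.82 for Samhd1, 3.51 for Adar and 3.24 for Zbp1. Tmem173 was again next to last (0.760) and Mb21d1 last (0.0390).

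**Figure D2:**
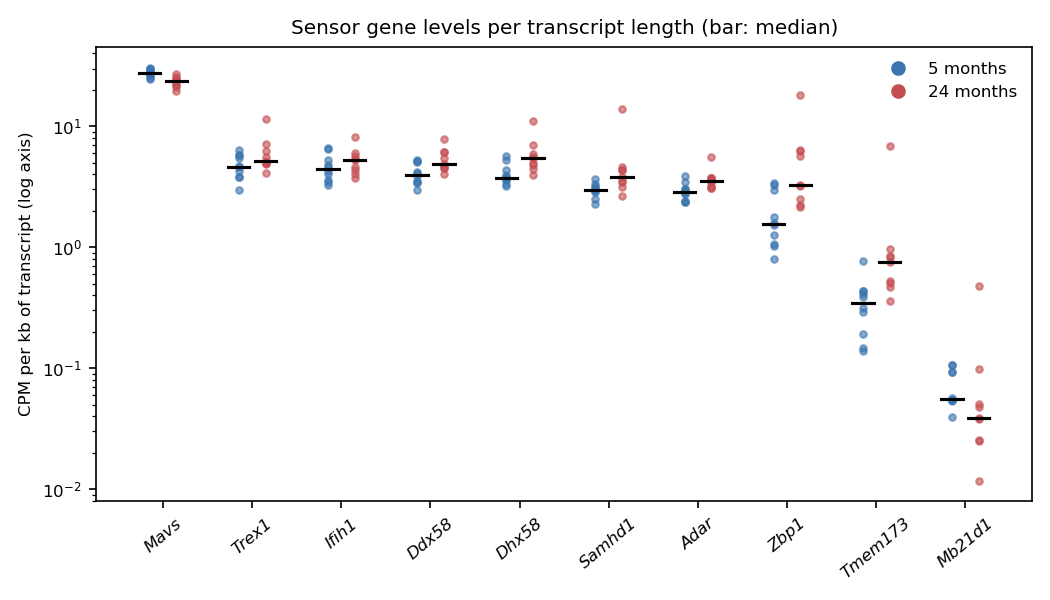
CPM per kb of transcript (log axis) for each sensor gene, ordered by the young median, with 1 point per library, blue for 5 months and red for 24 months, and bars for medians. Mavs lies above all other genes at both ages and Mb21d1 has the lowest median at both ages, and the 1 young library with no Mb21d1 count cannot be drawn on the log axis.

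Among the RNA receptors, Ddx58 encodes RIG-I, which recognises short RNA ends carrying a triphosphate. It lies on chromosome 4 (40203777 to 40239825, minus strand, mm10). Its level in young mice ran from 14.7 CPM through a median of 19.6 to 25.7 CPM, and in old mice from 19.7 through 23.9 to 38.8 CPM. All 9 old mice were above the young median and 4 were above every young mouse. The 3 highest young values were those of mice 1184, 1186 and 1188, and 8 of 9 old mice lay above the remaining young mice. The log2 fold change of Ddx58 was 0.38 (SE 0.110, 1.30-fold higher in old mice, edgeR adjusted p = 0.0142), or 0.31 without old mouse 1187 (adjusted p = 0.0325).

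Ifih1 encodes MDA5, the receptor of long double-stranded RNA, on chromosome 2 (62595793 to 62646255, minus strand). Young mice had 18.1, 24.3 and 36.2 CPM as lowest, median and highest values, and old mice 20.6, 28.8 and 45.1 CPM. Only old mouse 1187 exceeded every young mouse, and 6 of 9 old mice were above the young median. The log2 fold change was 0.17 with a 95% interval of -0.09 to 0.44 (edgeR adjusted p = 0.303), an interval that holds the estimate of Ddx58. Young mice 1184, 1186 and 1188 again held the 3 highest young values. Without those 3 mice the log2 fold change was 0.32 and still did not pass (edgeR adjusted p = 0.0877).

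Dhx58 encodes LGP2, which lacks the signalling domain of the other receptors and modulates their output. It lies on chromosome 11 (100694884 to 100704271, minus strand). Its values were 7.69 (lowest), 9.01 (median) and 13.7 CPM (highest) in young mice, against 9.51, 13.0 and 26.4 CPM in old mice. All 9 old mice were above the young median, and 3 exceeded every young mouse. Dhx58 rose by 0.53 (SE 0.163, 1.45-fold, edgeR adjusted p = 0.0193), and by 0.37 without mouse 1187 (adjusted p = 0.0368). Differences between the 3 receptors were not tested.

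Sequence around the start sites is shown for Ddx58 and Ifih1 because both carry a copy of the core of the interferon-stimulated response element. Starts were read from RefSeq promoters on GRCm38.p6, each 250 bases before to 50 bases after a start, and 7 of the 10 genes matched. Promoters of Dhx58, Zbp1 and Tmem173 were not used here. The letters searched were GAAA, any 2 bases and GAAA again, on either strand, and they occur in 3.44% of the 32851 promoters in the table. One match lay in the promoter of Ddx58 and one in that of Ifih1, with none in the windows of Mavs, Mb21d1, Trex1, Adar or Samhd1. Both matches lay just downstream of the start, beginning at base 3 of the Ddx58 transcript and at base 33 of the Ifih1 transcript, within the first exon. The lines give 30 bases around each match, 5′ to 3′ on the strand of the gene, with the matched bases in capitals; in Ddx58 the match reads on the opposite strand.
Ddx58, chr4:40239804-40239833, minus strand: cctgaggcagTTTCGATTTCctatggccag
Ifih1, chr2:62646206-62646235, minus strand: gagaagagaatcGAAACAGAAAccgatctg

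The region before the Ddx58 start, from 250 bases upstream to base 30 of the transcript (chr4:40239796-40240075, minus strand, GRCm38.p6), gives the context of its match, again in capitals.
Ddx58 start region: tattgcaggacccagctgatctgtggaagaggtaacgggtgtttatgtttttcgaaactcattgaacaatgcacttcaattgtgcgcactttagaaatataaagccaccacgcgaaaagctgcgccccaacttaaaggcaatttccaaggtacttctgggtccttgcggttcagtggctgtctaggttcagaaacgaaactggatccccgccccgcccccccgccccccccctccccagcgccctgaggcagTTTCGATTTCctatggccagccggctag

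A match is a description of letters and not a measured binding site. A second set of letters, TTCNNNGAA, the palindromic core bound by STAT dimers, was found in 8.3% of promoters. Among the sensor genes it occurred at base 23 of the Adar transcript counted in the table and 235 bases before an annotated Samhd1 start, and in no other window. Of Ddx58 and Ifih1, which share the first set of letters, only Ddx58 passed the age test.

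Mavs encodes the adaptor on mitochondria and peroxisomes to which RIG-I and MDA5 signal. Its row, on chromosome 2 (131234063 to 131248024, plus strand), lies within the span that the table gives the opposite-strand microRNA gene Mir3098. Young mice had 76.5 (lowest), 85.2 (median) and 94.2 CPM (highest). In old mice the values were 60.0, 73.2 and 82.8 CPM. All 9 old mice lay below the young median, and the ranges overlapped. Mavs fell by 0.25 on the log2 scale (SE 0.063, edgeR adjusted p = 0.00727), with a 95% interval of -0.38 to -0.12. Without mouse 1187 it fell by 0.22 on the log2 scale (adjusted p = 0.0103). The adaptor was thus lower in old mice while the receptor genes Ddx58 and Dhx58 were higher. Its spread was the smallest of the 10 genes, with a log2 SD of 0.10 in young and 0.15 in old mice.

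On the DNA side, Mb21d1, the gene of cGAS on chromosome 9 (78430518 to 78443237, minus strand), was close to the limit of detection. The table counts it on a RefSeq transcript classed as non-coding. Young libraries held 0 to 9 deposited counts and old libraries other than 1187 held 1 to 8, whereas old mouse 1187 held 45. Below a floor of 3 counts lay 1 young library, with 0 counts, and 3 old libraries, with 1 to 2.5 counts. Mean log2 CPM was -1.53 in young and -1.60 in old mice, a difference of -0.13 averaged over cull days (exact two-sided permutation p = 0.774 over 31752 relabellings within cull days). The depth does not allow a change in cGAS transcript to be judged.

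Tmem173 encodes STING, which is activated by the cGAS product and recruits TBK1, on chromosome 18 (35733678 to 35740554, minus strand). Young mice had 0.316 (lowest), 0.799 (median) and 1.75 CPM (highest), and old mice 0.831, 1.74 and 15.8 CPM. All 9 old mice were above the young median. Mouse 1187 was 10.8 times the median of the other old mice. Tmem173 rose by 1.83 (SE 0.512, edgeR adjusted p = 0.0126), and by 0.90 without mouse 1187 (1.86-fold, edgeR adjusted p = 0.0295). The summed macrophage level was also highest in mouse 1187, at 3704 CPM, as were those of the endothelial, stellate, lymphocyte, neutrophil and dendritic lists. The part of such cells in this result was not tested.

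Zbp1 encodes a sensor of left-handed (Z-form) nucleic acid that drives necroptosis through RIPK3 and is itself interferon-induced. It lies on chromosome 2 (173206612 to 173218922, minus strand). Young values were 1.58 (lowest), 3.09 (median) and 6.69 CPM (highest). Old values were 4.26, 6.42 and 35.6 CPM. All 9 old mice were above the young median and 4 exceeded every young mouse. Young mice 1184, 1186 and 1188 held the 3 highest young values, and all 9 old mice exceeded the remaining young mice. Zbp1 rose by 1.49 (SE 0.365, 2.82-fold, edgeR adjusted p = 0.00589) and by 1.10 without mouse 1187 (2.15-fold, edgeR adjusted p = 0.0116). Without that mouse it had the largest fold change of the 9 genes tested.

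Among the genes that restrain sensing, Adar encodes the RNA editing enzyme that converts adenosine to inosine in double-stranded RNA and so hides self RNA from MDA5. The counted transcript starts at 89730718 on chromosome 3 and ends at 89753455 (plus strand). In the GENCODE M21 annotation, the longest transcript that begins within its first exon (Adar-203, from 89730748) has its start codon in that exon and 1178 codons, whereas Adar-202 starts upstream at 89715022, has its start codon in exon 2 and has 930 codons. Adar-204 and Adar-205, from 89730748 as well, have their start codon in exon 2 and only 660 and 634 codons. The row does not count the upstream first exon, other exons are shared, and the forms cannot be separated here. The end of the row overlaps the end of the opposite-strand gene Chrnb2.

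Adar values were 13.9 (lowest), 16.9 (median) and 22.7 CPM (highest) in young and 18.0, 20.7 and 32.7 CPM in old mice. All 9 old mice were above the young median, but only mouse 1187 exceeded every young mouse. The 3 highest young values were again those of mice 1184, 1186 and 1188, and all 9 old mice exceeded the remaining young mice. Adar rose by 0.33 (SE 0.095, 1.25-fold, edgeR adjusted p = 0.0150) and by 0.25 without mouse 1187 (adjusted p = 0.0284), a small difference in a gene with a narrow spread.

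Samhd1 encodes a triphosphohydrolase that depletes deoxynucleotides, on chromosome 2 (157097529 to 157135222, minus strand). Young mice had 9.11 (lowest), 11.9 (median) and 14.7 CPM (highest), and old mice 10.6, 15.2 and 55.2 CPM. In old mice 8 of 9 were above the young median and 5 above every young mouse. Samhd1 rose by 0.68 (SE 0.238, 1.60-fold, edgeR adjusted p = 0.0364). Without mouse 1187 the log2 fold change was 0.32 (edgeR adjusted p = 0.0345). The call was the least stable of the 7: it did not pass when any of young mice 1180, 1182, 1186, 1188 and 1243 or old mice 1240 and 1242 was left out, with log2 fold changes of 0.63 to 0.68 and edgeR adjusted p of 0.0531 to 0.0644.

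Trex1 encodes the exonuclease that degrades cytosolic DNA before cGAS meets it, on chromosome 9 (109057932 to 109059723, minus strand). Its values were 3.17 (lowest), 4.95 (median) and 6.77 CPM (highest) in young and 4.38, 5.51 and 12.2 CPM in old mice. Although 8 of 9 old mice were above the young median, only 2 exceeded every young mouse. The log2 fold change was 0.38 (SE 0.175, edgeR adjusted p = 0.108) and 0.18 without mouse 1187 (edgeR adjusted p = 0.24). Young mice 1184 and 1188, which were high for several other sensor genes, held the lowest young Trex1 values, at 3.17 and 4.06 CPM.

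Complete separation of the ages was met by none of the 9 tested genes. Over all genes tested, all old libraries were above all young libraries for 0.994% and below them for 0.725%.

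Cull day was next taken into account. On the second day alone edgeR called 6 of the 9 genes higher with age and 0 lower, against 12.2% of all genes higher and 7.15% lower. These were Ddx58 (0.55), Dhx58 (0.59), Tmem173 (1.44), Zbp1 (1.38), Adar (0.36) and Samhd1 (0.51), as log2 fold changes. Mavs had -0.24 on that day and did not pass (edgeR adjusted p = 0.0898), and Ifih1 had 0.31 and Trex1 0.14. The share of all genes with the ages fully apart on that day was not computed. For the 6 called genes, already picked by their difference on that day, each of the 4 old mice exceeded all 5 young mice of that day. Second-day Zbp1, for example, averaged 2.87 ± 0.567 CPM in the young (SD, n = 5) against 7.43 ± 3.50 CPM in the old (SD, n = 4). On the first day alone 0 of 9 passed in edgeR, 3 of them (Mavs, Tmem173 and Zbp1) at an unadjusted p under 0.05, where 1.88% of all genes were higher and 1.79% lower. First-day log2 fold changes were 2.11 for Tmem173, 1.58 for Zbp1, 0.82 for Samhd1, 0.58 for Trex1, 0.48 for Dhx58, 0.30 for Adar, 0.24 for Ddx58, 0.059 for Ifih1 and -0.26 for Mavs. The estimates had the same sign on both days for all 9 genes. First-day Zbp1 averaged 4.54 ± 2.52 CPM in the young (SD, n = 5) against 13.7 ± 12.8 CPM in the old (SD, n = 5). This day held both old mouse 1187 and young mice 1184, 1186 and 1188.

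The age effect was not shown to differ between the days. An age by cull day interaction gave 0 of 9 genes in edgeR, 0 at an unadjusted p under 0.05, with a smallest adjusted p of 0.866 (Ddx58), where 0% of all genes passed. DESeq2 gave 0, also unadjusted, and limma gave 0 with 2 at an unadjusted p under 0.05. For cull day itself, Ifih1 was lower on the second day by a log2 difference of -0.41 (edgeR adjusted p = 0.0397), against 12.3% of all genes called in either direction, 5.72% higher and 6.55% lower on the second day. Ddx58 (-0.31) and Adar (-0.28) had adjusted p of 0.0671 and 0.0625 in edgeR. Without young mice 1184, 1186 and 1188, 0 sensor genes passed for cull day in edgeR, and 0 had an unadjusted p under 0.05.

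Macrophage markers were next taken into the fit. With the mean log2 level of the 16 macrophage genes as a further covariate, 0 of 9 sensor genes passed in edgeR (2 at an unadjusted p under 0.05), where 8.83% of all genes were higher and 8.2% lower. The log2 fold changes were then 0.70 for Zbp1 (edgeR adjusted p = 0.0698), -0.20 for Mavs (0.0564), 0.16 for Ddx58, 0.20 for Dhx58, 0.17 for Adar, 0.29 for Tmem173, 0.047 for Samhd1, 0.12 for Trex1 and -0.080 for Ifih1. Zbp1 and Mavs had intervals that left out 0, at 0.15 to 1.24 and -0.35 to -0.05, and they were the genes with an unadjusted p under 0.05. With the same covariate and without mouse 1187, 1 gene passed, Mavs (-0.22, edgeR adjusted p = 0.0240), where 11.9% of all genes were higher and 10.9% lower. An other-cell score of 43 genes of macrophages, endothelium, stellate cells and lymphocytes gave 0 calls as covariate (1, Mavs, at an unadjusted p under 0.05 in edgeR), against 6.02% of all genes higher and 5.93% lower. Whether the sensor transcripts came from hepatocytes or from other cells in the preparation was not tested.

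**Figure D3:**
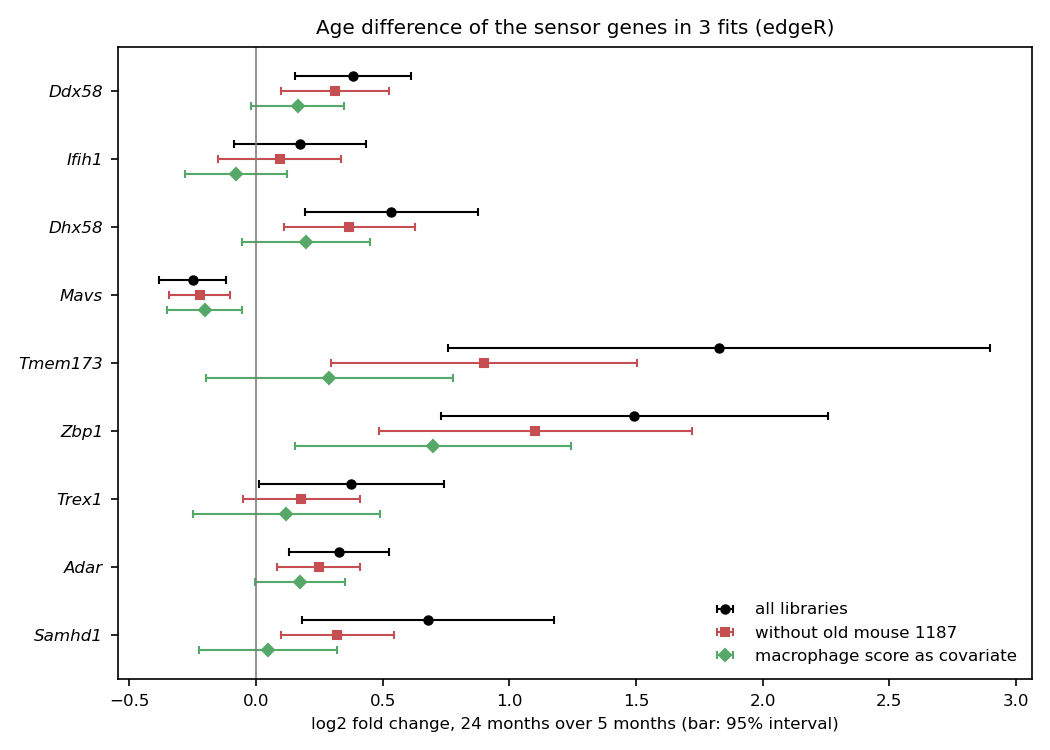
Log2 fold change of old over young mice (horizontal axis) with 95% intervals for the 9 tested sensor genes in edgeR, with all libraries (black circles), without old mouse 1187 (red squares) and with the macrophage score as a covariate (green diamonds). Tmem173 moves from 1.83 to 0.90 and 0.29 across the 3 fits, whereas Mavs stays between -0.25 and -0.20.

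**Figure D4:**
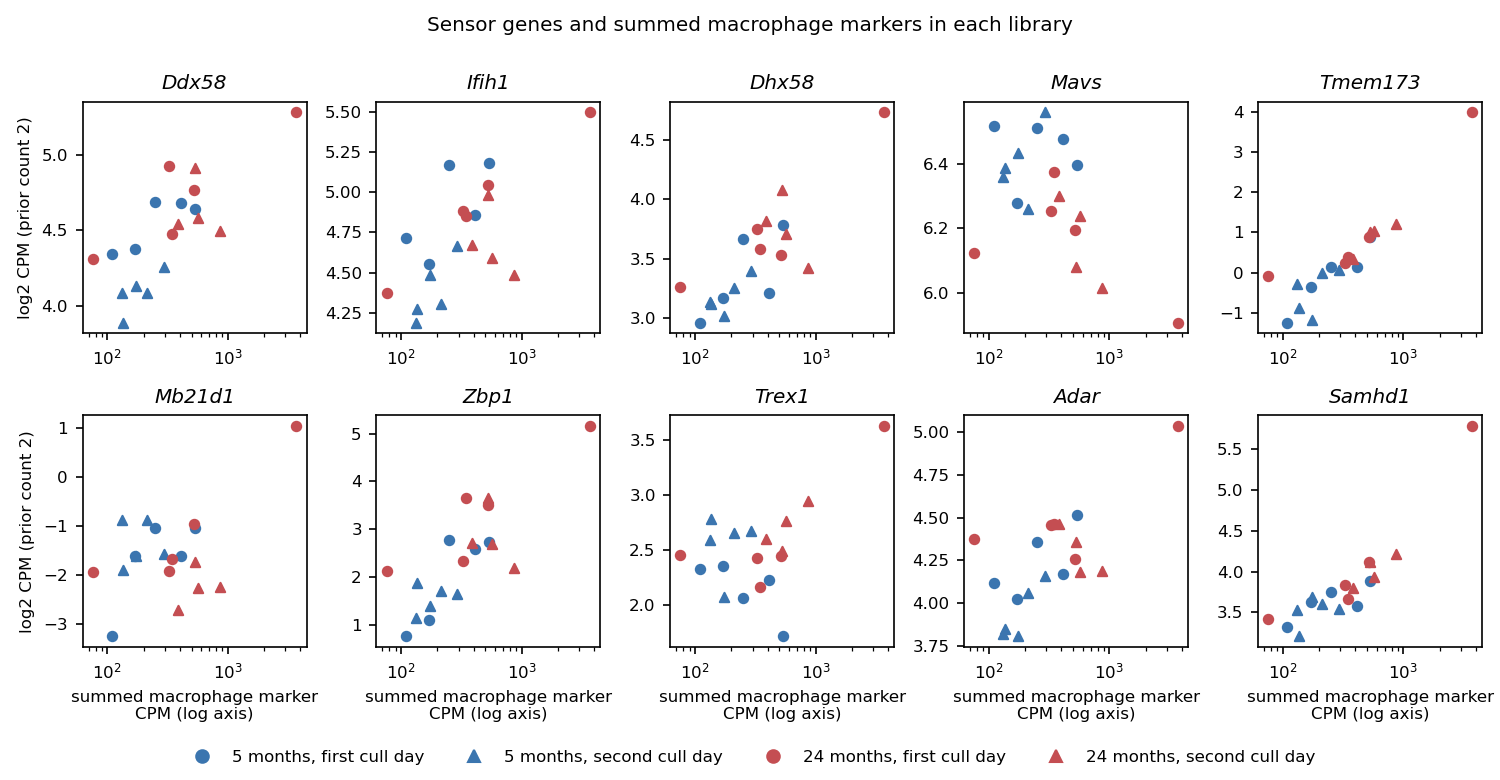
Log2 CPM of each sensor gene (vertical axis) against the summed CPM of 16 macrophage markers (horizontal log axis) in each library, coloured by age, with circles for the first and triangles for the second cull day. Old mouse 1187 lies at the far right, at 3704 CPM of macrophage markers, and old mouse 1183 at the far left, at 75.7 CPM.

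Old mouse 1183 had fewer macrophage transcripts than any other library, at 75.7 CPM, below all young mice. Its Adar level was 20.7 CPM and its Zbp1 level 4.26 CPM, each above the respective young medians of 16.9 and 3.09 CPM. Ddx58 was at 19.7 CPM and Dhx58 at 9.51 CPM in that mouse, near the young medians of 19.6 and 9.01 CPM. Its Ifih1 (20.6 CPM) and Samhd1 (10.6 CPM) were below the young medians. Its Tmem173 level of 0.831 CPM was near the young median of 0.799 CPM, and its Trex1 level was 5.35 CPM against a young median of 4.95 CPM. Ddx58, Ifih1, Dhx58, Tmem173, Zbp1 and Samhd1 each had their lowest old value in this mouse. Its Mavs level of 69.6 CPM was below every young mouse.

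For each tested sensor gene, the genes with the most similar profile were found from residuals of log2 CPM after removing age by cull day means, over 19 libraries, and are given as a description with Pearson's r. Ifih1 was most like Ddx60 (r = 0.955), an interferon-induced helicase relative, and Esyt1 (0.939). Dhx58 was most like Trim30a (0.930) and Xaf1 (0.911), both interferon-induced, and Zbp1 like Herc6 (0.935) and Iigp1 (0.915), which are interferon-induced as well. Tmem173 was most like Tmsb4x (0.972), an actin-binding peptide abundant in blood cells, and Ggta1 (0.969). Samhd1 was most like Gltp (0.968) and Gpsm3 (0.956), and Ddx58 like Zfp90 (0.921) and Tgfbr2 (0.913). Adar was most like Chsy1 (0.893) and Pck2 (0.853), Trex1 like Mpp1 (0.869) and Arpc3 (0.867), and Mavs like the translation initiation factor Eif4g1 (0.871) and Jmy (0.843). These are the highest values among all tested genes. Without mouse 1187 they were 0.938 for Ifih1 with Ddx60 and 0.931 for Tmem173 with Tmsb4x, but 0.711 for Trex1 with Mpp1.

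The wider pathway was described with 6 lists of 105 further genes, of which 78 were tested. Of these, 15 were higher and 9 lower in old mice, or 30.8% in either direction, against 30.9% of all genes, a share near that of all genes. The median log2 fold change of the 78 genes was 0.02.

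Of 21 tested regulators and signalling partners of the RNA receptors, 3 were higher, 3 lower and 15 did not pass, with a median of -0.04. Irf7, the interferon-inducible factor that amplifies interferon production, averaged 26.4 ± 5.14 CPM at 5 months (SD, n = 10), against 62.3 ± 45.2 CPM at 24 months (SD, n = 9). It rose by 1.20 (SE 0.252, edgeR adjusted p = 0.00227), by 0.84 without mouse 1187 (adjusted p = 7.94e-05) and by 0.60 with the macrophage covariate, where it still passed (adjusted p = 0.0144). With the other-cell covariate it had 0.39 and did not pass (edgeR adjusted p = 0.122). Riok3, a kinase that acts on MDA5, fell by 0.33 on the log2 scale, Tax1bp1, an adaptor that restrains this signalling, fell by 0.27, and Nlrx1, a mitochondrial inhibitor of MAVS, rose by 0.16. Without mouse 1187, Nlrx1 had the same estimate, 0.16, but did not pass (edgeR adjusted p = 0.0604) and 1 gene of the list was higher and 3 lower. Among the 15 that did not pass were the kinase gene Tbk1 (-0.068), Irf3 (-0.034) and Trim25 (0.047), the ubiquitin ligase of RIG-I, which were picked after their values were seen.

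Among 18 tested genes of DNA sensing and STING function, 2 were higher, 1 lower and 15 did not pass, with a median of -0.06. Enpp1, the ectoenzyme that hydrolyses the cGAS product outside the cell, ran from 18.6 to 30.9 CPM in young and from 31.1 to 45.6 CPM in old mice, so that the ages did not overlap. It rose by 0.63 (SE 0.065, edgeR adjusted p = 9.28e-06) and by 0.65 with the macrophage covariate (adjusted p = 2.83e-05). Zdhhc1, a transmembrane acyltransferase relative that binds STING, rose by 0.81, and Prkdc, the catalytic subunit of DNA-dependent protein kinase, fell by 0.58 on the log2 scale. All 3 kept their call without mouse 1187 and with the macrophage covariate.

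Of 19 tested genes of nucleic acid clearance and restriction, 5 were higher, 3 lower and 11 did not pass, with a median of 0.11. The nuclease genes Dnase2a, Pld4 and Dnase1l3 rose by 0.46, 1.57 and 0.63, and Ttc37, a subunit of the cytosolic exosome's helper complex, fell by 0.54 on the log2 scale. Pld4 (0.75) did not pass without mouse 1187 (edgeR adjusted p = 0.0707), which left 3 genes of the list higher and 2 lower. With the macrophage covariate 0 were higher and 1, Ttc37, was lower.

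Among 9 tested cell death partners of ZBP1, 3 were higher and 1 lower, with 5 not passing and a median of 0.14. Ripk3, the necroptosis kinase that ZBP1 binds, averaged 0.546 ± 0.234 CPM at 5 months (SD, n = 10), against 2.05 ± 2.46 CPM at 24 months (SD, n = 9). It rose by 1.85 (SE 0.472, edgeR adjusted p = 0.00755), and by 1.16 without mouse 1187, which had 8.47 CPM (adjusted p = 0.0124). Mlkl, which ruptures the membrane in necroptosis, rose by 0.81 and Casp1 by 1.19, but without mouse 1187 they had 0.60 and 0.54 and neither passed (edgeR adjusted p = 0.11 and 0.0959). Cflar, the inhibitor of caspase-8 activation, fell by 0.30 on the log2 scale. With the macrophage covariate Ripk3 had 0.50 and did not pass (edgeR adjusted p = 0.181). Mlkl (0.22), Casp1 (0.12) and Cflar (-0.30, edgeR adjusted p = 0.0683) did not pass either. Ripk1 was then called lower (-0.33, edgeR adjusted p = 0.0242).

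Endosomal receptors showed 2 higher, 1 lower and 8 not passing of 11 tested, with a median of 0.13. Unc93b1, their chaperone, rose by 0.60 and Tlr3, the receptor of double-stranded RNA, by 0.45, while the kinase gene Irak1 fell by 0.19 on the log2 scale. Without mouse 1187, Tlr3 had 0.34 and did not pass (edgeR adjusted p = 0.0585), and with the macrophage covariate none of the 3 passed in edgeR. Irak1 then had -0.16 (adjusted p = 0.0681), close to its value without the covariate, whereas Unc93b1 had 0.19 (adjusted p = 0.0868) and Tlr3 0.17 (adjusted p = 0.326).

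None of the 21 interferon ligand genes passed the filter. Ifnb1 was among the 17 with no count in any library, and no ligand gene exceeded 2 counts in a library. At a floor of 3 counts, transcripts of interferon itself were not detectable at this depth.

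**Figure D5:**
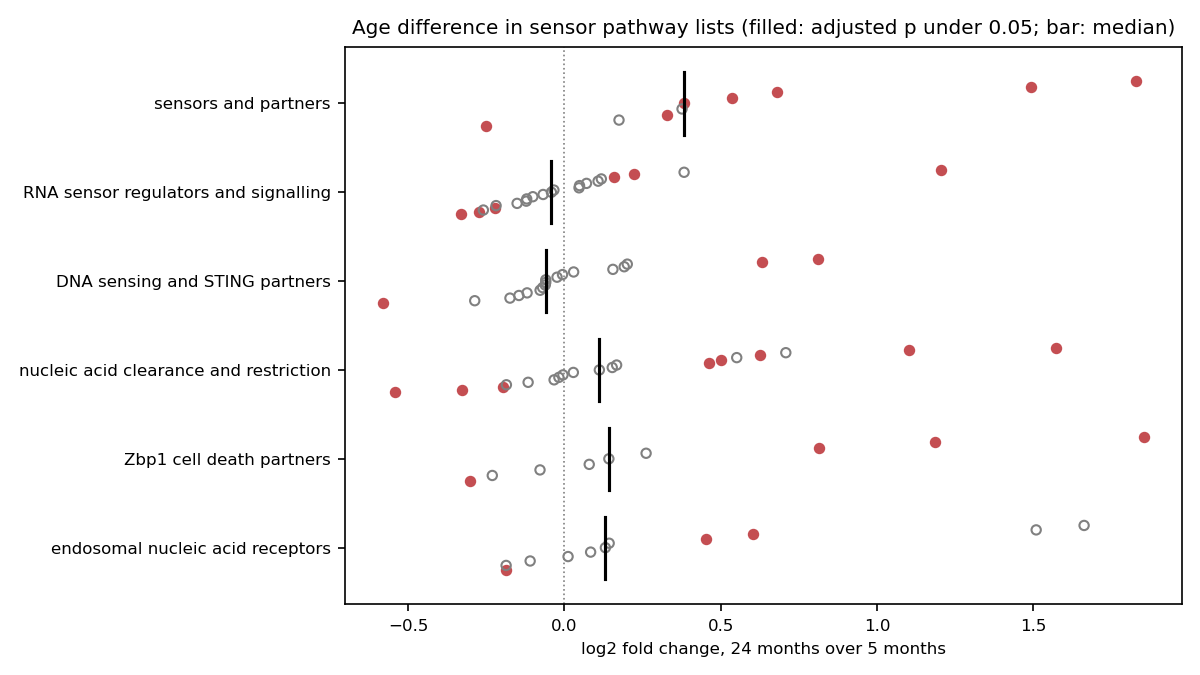
Log2 fold change of old over young mice (horizontal axis) for each tested gene of the sensor set and of 5 pathway lists (rows), with filled points past an edgeR adjusted p of 0.05, open points not past it, and bars at list medians. The medians of the pathway lists lie between -0.06 and 0.14, and that of the 9 sensor genes at 0.38.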

How the data were processed

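Poly(A) RNA of 19 hepatocyte libraries was analysed from 1 table of estimated counts per gene, which the authors deposited without normalization. Per the file headers, it was made by HOMER's analyzeRepeats.pl for mm10, counting reads in exons of 1 RefSeq transcript per gene; STAR and HOMER are named in the submitters' processing notes. The strand setting, versions and handling of reads with several matches are not given in the sources used here. The deposited counts were multiples of 0.5 (29.2% not whole) and were rounded. Total counts over genes, 17381439 to 20287628, set the precision.

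Genes were filtered with filterByExpr (minimum count 10). Age was tested in edgeR 4.0.16 (R 4.3.3) with TMM scaling, cull day as covariate and Benjamini-Hochberg adjustment over 12269 genes; standard errors were the log2 fold change over the root of F. The code was tested on simulated counts. An exact permutation test within cull days served the gene below the filter. Alternatives used DESeq2 1.42.0, limma 3.58.1, other scaling and filters, no cull day term, each cull day, covariates and left-out mice. Named genes were the sensor genes, up to 4 genes of smallest p per pathway list, the first 2 markers per cell list (those of 1 list are not reported here) and the 2 most similar genes per sensor gene; Tbk1, Irf3, Trim25, Csf3r, Clec9a and Bst2 were added after their values were seen. The members and lists were chosen with earlier results of these data known. The labels make each library a separate mouse.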

Additional observations from a re-analysis of the deposited data

Results flagged for a closer look

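Single libraries far from the rest of their age group were looked for in log2 CPM with Dixon's test, as the gap to the nearest library over the group's range, in 20 groups (10 genes at 2 ages), where chance marks about 5% of groups. Old mouse 1187 was marked as high for Tmem173 (gap ratio 0.680, 15.8 CPM), Mb21d1 (0.535, 1.96 CPM), Zbp1 (0.495, 35.6 CPM), Adar (0.667, 32.7 CPM) and Samhd1 (0.665, 55.2 CPM). The same mouse had the highest summed macrophage level, 3704 CPM. It was also highest for the T and NK cell (35.7 CPM), B cell (25.3), neutrophil (19.2), dendritic (231), endothelial (654) and stellate (409) lists. Other old libraries reached at most 3.90, 6.22, 7.36, 171, 551 and 232 CPM for these lists. For bile duct cells, mouse 1187 was not the highest. Young mouse 1180 was marked as low for Mb21d1 (0.570), with 0 counts.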

How the results depend on the processing

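The count of 7 age calls among the sensor genes was 6 to 7 when each mouse was left out in turn, and 6 or 7 under other scaling, filters, tools, unrounded counts or no cull day term. DESeq2 gave no adjusted p for Tmem173. It was 0 on the first cull day alone, 0 with the macrophage covariate, 0 with the other-cell covariate (1 at an unadjusted p under 0.05) and 1 (Mavs) with the macrophage covariate and without mouse 1187. With the other-cell covariate, the mean log2 CPM of 43 genes of 5 cell lists, 3 genes changed sign: Ifih1 (-0.17), Tmem173 (-0.12) and Samhd1 (-0.15). Ifih1 also did so with the macrophage covariate, at -0.080 with and -0.089 without mouse 1187. Pathway calls, 24 in all, were 3 on the first day, 12 with the other-cell and 10 with the macrophage covariate, 15 with the latter and without mouse 1187, and 16 to 29 leaving out each mouse. Over all genes, 3785 calls became 450 on the first and 2389 on the second day, 1465 and 2089 with the other-cell and macrophage covariates, and 3014 to 3949 leaving out each mouse. The single cull day call became 0 with library totals alone, 0 without a filter, 0 without mice 1184, 1186 and 1188 and 0 also without 1187, 3 with either covariate, 4 with the macrophage covariate and without 1187, 3 in DESeq2, 2 in limma and 0 to 3 leaving out each mouse. The share of all genes called for cull day is given here for the main fit alone (12.3%). These counts are therefore not read as a result about the sensor genes. The single-day fits held 5 young and 5 old mice on the first day and 5 young and 4 old on the second. The cause of these changes was not tested. Fits without 1184, 1186, 1188 and 1187 together, and with the macrophage covariate and without 1187, were chosen after seeing the data. Depth limits Mb21d1 and the interferon genes. No paired analysis was possible because the ages share no replicate numbers.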
